A study of Mus musculus with 12 samples.

Results

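The genes described here are 10 genes of iron uptake, storage and export, taken by symbol from a table of 18514 genes measured in mouse colorectal tissue. They are Tfrc, Steap4, Cybrd1 and Slc11a2 (uptake and reduction), Fth1 and Ftl1 (storage), Slc40a1, Heph and Cp (export), and Hmox1 (release of iron from haem). They were picked by symbol and not by a threshold on these values, and all 10 were among the 15484 genes that passed the filter on low counts. The study asked whether swimming training changes colitis-associated cancer in mice, and sequenced RNA of 12 male C57BL/6 mice, with 3 in each of 4 groups and 1 library per mouse. Ctrl mice received neither carcinogen nor colitis agent and did not swim. Ctrl_Swim mice swam daily and were otherwise untreated. Model mice received 1 injection of azoxymethane (AOM), a carcinogen that gives colon tumours in rodents, followed by repeated cycles of dextran sulfate sodium (DSS) in the drinking water, an agent that damages the colonic epithelium and causes colitis. Model_Swim mice received the same AOM/DSS treatment and swam, with training that began before AOM and went on to the end. Mice that did not swim stood in shallow water. The mice were bought as young animals and no genetic alteration is named. The tissue came from the opened colon, cecum to rectum, with the adherent fat removed, which also served for histology and metabolite work. Which part of it went to RNA in each mouse, and whether that part held tumour, is not stated. As tissue RNA, a library holds epithelium, stroma, muscle and infiltrating cells together.

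Iron enters most cells as transferrin bound to the transferrin receptor, is reduced by ferrireductases in the endosome or at the cell surface, and passes the membrane through the divalent metal transporter. Iron that is not used is stored inside the ferritin shell, and iron that leaves the cell passes ferroportin and is oxidised by a ferroxidase so that transferrin can bind it. In the intestine this system serves both the supply of dividing epithelial cells and the recycling of iron by macrophages, and many of its messenger RNAs carry an iron-responsive element (IRE). This short hairpin is bound by iron regulatory proteins when iron is scarce, which blocks translation where the hairpin lies in the 5′ untranslated region (UTR) and stabilises the transcript where it lies in the 3′ UTR. Inflammation, through hepcidin, lowers ferroportin protein and keeps iron in macrophages.

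The hairpins are shown because their place differs, with the 5′ UTR in Fth1, Ftl1 and Slc40a1 and the 3′ UTR in Tfrc. A search of the UTRs of GENCODE M21 transcripts on GRCm38.p6 for C, any 5 bases, the loop CAGTGN and 5 bases that pair with the first 5 (Watson-Crick or G-U pairs, transcript strand) found the motif in 4 of the 10 genes. The loop is in capitals in each 29-base stretch, written 5′ to 3′.
Fth1, 5′ UTR, chr19:9982732-9982760 (+): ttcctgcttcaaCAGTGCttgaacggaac
Ftl1, 5′ UTR, chr7:45459779-45459807 (−): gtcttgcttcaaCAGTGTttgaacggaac
Slc40a1, 5′ UTR, chr1:45925465-45925493 (−): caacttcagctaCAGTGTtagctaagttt
Tfrc, 3′ UTR, chr16:32631219-32631247 (+): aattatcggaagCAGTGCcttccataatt
Tfrc, 3′ UTR, chr16:32631598-32631626 (+): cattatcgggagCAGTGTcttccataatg
Tfrc, 3′ UTR, chr16:32631663-32631691 (+): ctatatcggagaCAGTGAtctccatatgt
Tfrc, 3′ UTR, chr16:32631710-32631738 (+): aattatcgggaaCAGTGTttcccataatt
Tfrc held 4 matches, all in exon 19, and Fth1, Ftl1 and Slc40a1 held 1 each. The same search matched 155 of 21745 protein-coding genes (0.713%), 28 in a 5′ UTR (0.129%) and 127 in a 3′ UTR (0.584%). A match is a description of these letters and was not tested for binding. The other 6 genes, among them Steap4, Cybrd1, Slc11a2, Heph and Cp, held no match, which says only that these letters are not there. All 5 pairs were required, so a hairpin with an unpaired base in this stretch would be missed.

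Total counts per library lay between 17256953 and 19451055, and the lowest count of any of the 10 genes in any library was 57 (Cybrd1). Values per library are CPM (counts relative to the library total, scaled by TMM), and levels are compared between genes as the deposited FPKM, which is per transcript length and not TMM-scaled. FPKM differences between Model and Ctrl therefore lie 0.11 above the TMM-scaled ones on the log2 scale. Pancreatic acinar genes (12 of 12 markers present) summed to 43530 CPM in Model 1 and 21174 CPM in Model 3, against 13.1 to 97.9 CPM in the other 10 libraries. Squamous epithelium markers (8 genes) summed to 342 CPM in Ctrl_Swim 4, 527 and 1399 CPM in Model 1 and Model 2, and 105, 924 and 1027 CPM in the Model_Swim mice, against 2.71 to 45.0 CPM in the other 6. Colonocyte markers (8 genes, led by Car1 and Krt20) were present in every library, and markers of distal position (4 genes, led by Hoxb13) summed to 20.5 CPM in Model 3 against 77.1 to 251 CPM elsewhere. All 3 Model_Swim mice were among the libraries high in squamous genes, so these were not left out together and the squamous list was used as a covariate instead.

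Ferritin was by far the most abundant of the 10 by FPKM. Over the 12 libraries Fth1, the ferritin heavy chain with the ferroxidase centre, had a mean of 2001 FPKM and ranked 7 among all genes, and Ftl1, the ferritin light chain, had 1260 FPKM and ranked 19. Tfrc followed with a mean of 55.6 FPKM, Slc40a1 with 39.6, Heph with 28.6, Steap4 with 8.78, Slc11a2 with 8.10, Hmox1 with 7.14 and Cp with 4.66 FPKM. Cybrd1, the duodenal ferrireductase, came last with 0.956 FPKM. In Ctrl mice the ranges of Fth1, Ftl1 and Tfrc lay apart from each other and from the rest, while Heph and Slc40a1 overlapped, as did Steap4 and Cp. The order was not the same in every group. In Model mice Slc40a1 (45.1 ± 14.5 FPKM, SD, n = 3) stood above Tfrc (34.5 ± 5.71 FPKM), with overlapping ranges, whereas in Ctrl mice Tfrc (71.4 ± 6.18 FPKM) lay above Slc40a1 (30.4 ± 4.76 FPKM) without overlap. Steap4 moved from place 8 in Ctrl (3.08 ± 0.388 FPKM) to place 6 in Model (15.5 ± 6.64 FPKM), where its range lay above that of Slc11a2. The spread between the highest and lowest of the 12 libraries in CPM was widest for Steap4, at 8.70-fold, and narrowest for Slc11a2, at 1.29-fold.

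**Figure D1:**
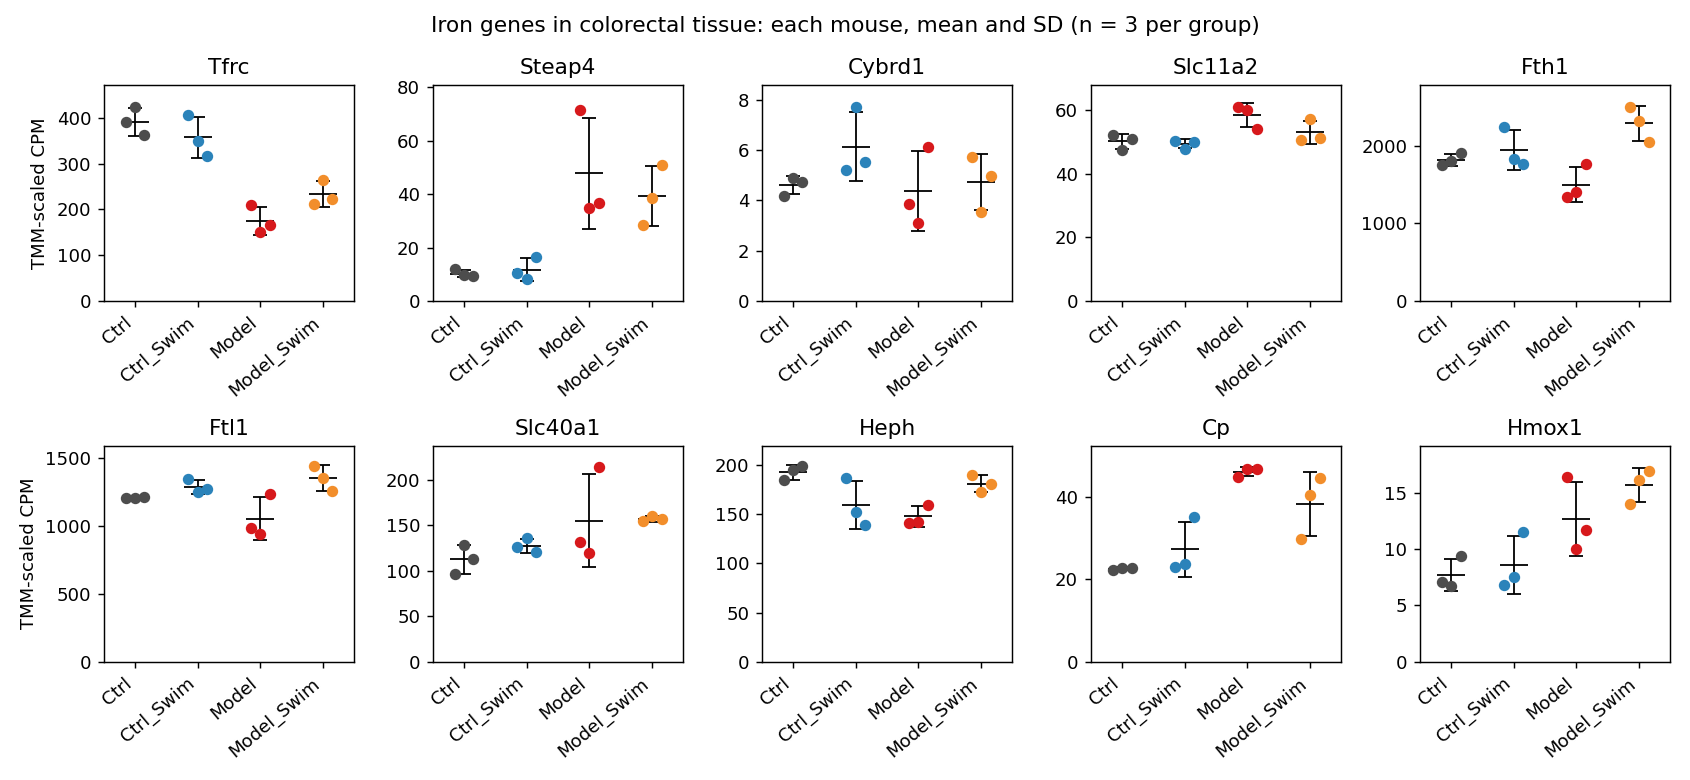
TMM-scaled CPM (vertical axes, linear, from 0) of the 10 genes in each of the 12 mice, by group, with the mean and SD (bars, n = 3). Tfrc is lower and Steap4 higher in all 6 AOM/DSS mice than in all 6 untreated mice, while the other 8 genes overlap between those 2 sets.

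Genes of uptake and export differed in both directions between Model and Ctrl mice. Tfrc fell to 0.447 of its Ctrl level and Heph fell to 0.766, while Steap4 rose 4.65-fold, Cp 2.04-fold, Hmox1 1.64-fold and Slc11a2 1.16-fold. Between Model and Ctrl, 6 of the 10 genes passed an adjusted p under 0.05 in edgeR's quasi-likelihood test, 4 higher and 2 lower in Model. Of all 15484 genes tested, 32.7% passed, 16.5% higher and 16.2% lower, so a large part of the transcriptome differed between these groups. Tfrc, Steap4 and Cp also passed the study's fold cutoffs (over 2 or under 0.5), which 7.43% of all genes did. The median log2 fold change was 0.07 over the 10 genes and 0.01 over all genes tested. In 6 of the 10 genes the values of the Model and Ctrl groups were fully separated, against 44.2% of all genes.

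Tfrc encodes transferrin receptor 1, the main entry of transferrin iron (chromosome 16, 32608896 to 32632794, GRCm38.p6). Its level was 390.2, 423 and 362 CPM in Ctrl mice 1 to 3, and 209, 149.8 and 167 CPM in Model mice 1 to 3. All 3 Model values were under all 3 Ctrl values, and the log2 difference was −1.16 (SE 0.14, adjusted p = 0.000523). The difference was between −1.41 and −1.04 in all alternatives run, including the fit without Model 1 and Model 3 (−1.41, adjusted p = 0.000527). Tfrc is also one of the genes that the study's own text singles out on these mice, so its direction here is not independent evidence.

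Steap4 encodes a metalloreductase of the STEAP family that reduces iron and copper (chromosome 5, 7960472 to 7982213). Its level was 11.9, 9.59 and 9.34 CPM in the Ctrl mice and 71.7, 34.7 and 36.8 CPM in the Model mice. The groups did not overlap, and Model 1 stood well above the other Model mice. The log2 difference was 2.22 (SE 0.34, adjusted p = 0.00128), and 1.81 without Model 1.

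Slc11a2 encodes the divalent metal transporter DMT1, which carries reduced iron across the apical or endosomal membrane (chromosome 15, 100387898 to 100424209). Its level was 52.1, 47.3 and 51.0 CPM in Ctrl and 61.1, 60.0 and 54.1 CPM in Model. The Model mice lay just above the Ctrl mice, and the log2 difference was 0.22 (SE 0.07, adjusted p = 0.0346). The call did not hold without Ctrl 2, Ctrl 3, Model 1 or Model 2, with adjusted p between 0.064 and 0.108. Cybrd1, whose product reduces dietary iron at the brush border of the duodenum (chromosome 2, 71118054 to 71142926), stood at 4.19, 4.90 and 4.72 CPM in Ctrl and 3.86, 3.10 and 6.14 CPM in Model. These values overlapped, and the log2 difference of −0.08 (SE 0.27) had an adjusted p of 0.846.

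The storage genes did not pass the test between Model and Ctrl. Fth1 (chromosome 19, 9980600 to 9985111) stood at 1748, 1796 and 1898 CPM in Ctrl and at 1332, 1398 and 1757 CPM in Model, a log2 difference of −0.28 (SE 0.12, adjusted p = 0.106). Ftl1 (chromosome 7, 45457944 to 45459886) stood at 1199.8, 1200.5 and 1212 CPM in Ctrl and at 984, 936 and 1236 CPM in Model, a log2 difference of −0.19 (SE 0.10, adjusted p = 0.152). For both chains Model 1 and Model 2 lay below all Ctrl mice, and Model 3 lay among the Ctrl mice for Fth1 and above them for Ftl1. Without Model 3 both chains were called lower in Model, Fth1 at −0.40 (adjusted p = 0.0179) and Ftl1 at −0.32 (adjusted p = 0.00859). Colonocyte markers summed to 3196, 4238 and 8443 CPM in Model 1 to 3, beside 10788 to 11532 CPM in Ctrl. Most of the gap between Model 3 and the other Model mice was Car1, at 410, 277 and 4728 CPM, and the other 7 markers summed to 2786, 3961 and 3714 CPM, beside 4407 to 4761 CPM in Ctrl. With the mean of the colonocyte list as a covariate, a setting added after seeing the data, the differences were 0.08 for Fth1 (adjusted p = 0.672) and 0.02 for Ftl1 (adjusted p = 0.946). The markers of that list did not move together. In Model 2 Slc26a3, Car4 and Aqp8 (563, 657 and 499 CPM) lay above all Ctrl mice. Car1, Krt20, Guca2a, Cdh17 and Vil1 lay below them. Ferritin genes have near-identical processed copies in the genome, and how reads shared with them were counted is not given in the sources used here.

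Of the export genes, 1 rose, 1 fell and 1 did not pass. Cp encodes ceruloplasmin, a copper ferroxidase that is secreted or membrane-bound (chromosome 3, 19956933 to 20009750). The mice of each group lay close together, with 22.2, 22.8 and 22.7 CPM in Ctrl and 44.9, 46.8 and 46.8 CPM in Model. This is a log2 difference of 1.03 (SE 0.17, adjusted p = 0.00169). Heph encodes hephaestin, the membrane ferroxidase of the enterocyte (chromosome X, 96455436 to 96574485). It went the other way, with 185, 196 and 199 CPM in Ctrl and 142, 142 and 159.7 CPM in Model, a log2 difference of −0.38 (SE 0.10, adjusted p = 0.0139). Neither ferroxidase overlapped between the groups, and Heph was not called with the acinar covariate (−0.42, adjusted p = 0.0724). Slc40a1 encodes ferroportin, the iron exporter (chromosome 1, 45908070 to 45926532), and stood at 96.0, 129 and 113 CPM in Ctrl and at 131, 119.9 and 214 CPM in Model. The groups overlapped and Model 3 lay far above the rest, and the log2 difference of 0.46 (SE 0.18) had an adjusted p of 0.0731. DESeq2 called it at 0.47 (adjusted p = 0.0284), edgeR called it without Model 1 (0.58) or without Model 2 (0.63), and without Model 3 it was 0.17.

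Hmox1 encodes haem oxygenase 1, which opens the haem ring and frees its iron (chromosome 8, 75093618 to 75100593). Its level was 7.06, 6.76 and 9.34 CPM in Ctrl and 16.3, 9.96 and 11.7 CPM in Model. The Model mice lay above the Ctrl mice by a narrow margin, and the log2 difference was 0.71 (SE 0.23, adjusted p = 0.0379). The call was lost without Ctrl 1, Ctrl 2, Model 1, Model_Swim 2 or Model_Swim 3, with adjusted p between 0.0501 and 0.122. Without both libraries high in acinar genes the difference was 0.35 (adjusted p = 0.392).

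**Figure D2:**
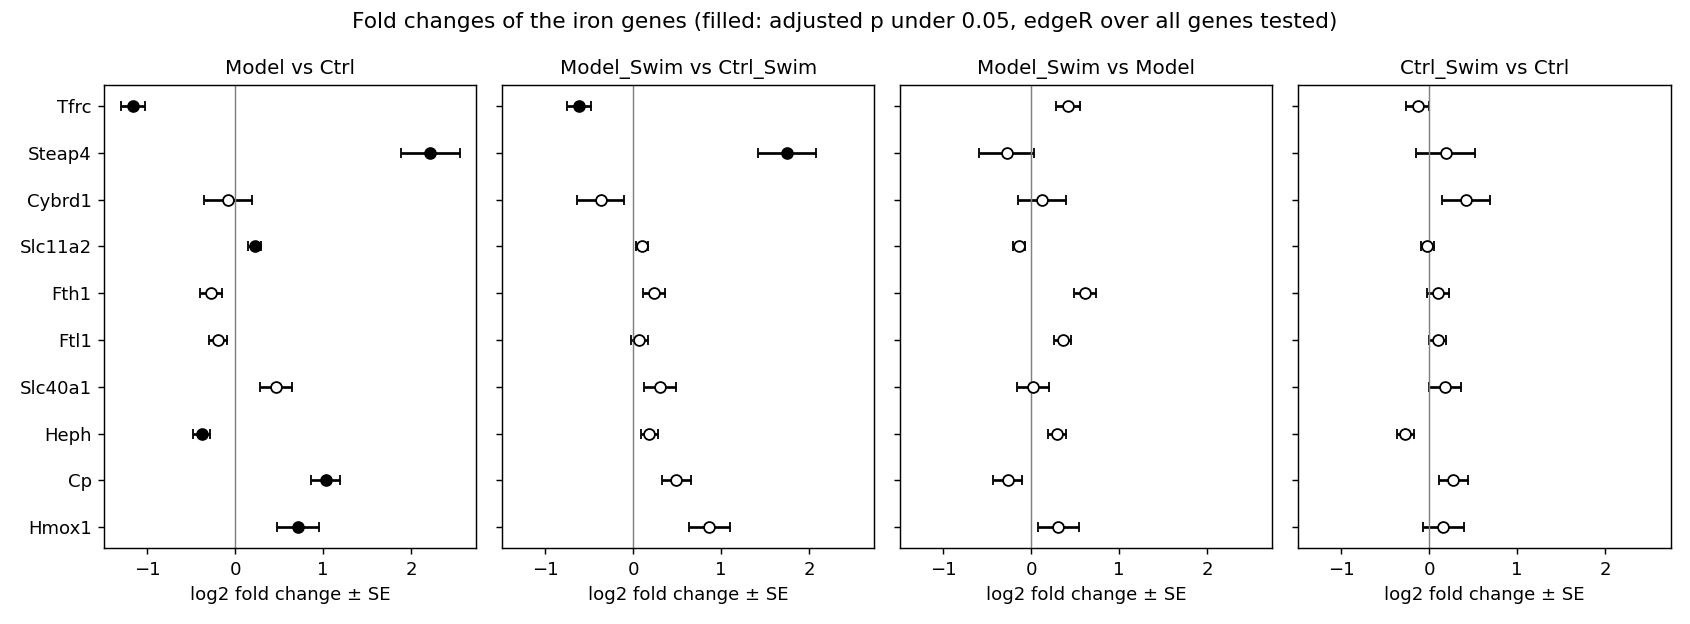
Log2 fold change with SE (horizontal axes) of the 10 genes in 4 comparisons, from the fit of all 12 libraries; filled points passed an adjusted p under 0.05 over all genes tested. Between Model and Ctrl 6 points are filled, between Model_Swim and Ctrl_Swim 2, and in both comparisons of swimming 0.

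Several cell type markers moved with these genes between Model and Ctrl. Macrophage markers (11 genes, of which 8 were higher and 1, Cd163, lower in Model) summed to 404 to 428 CPM in Ctrl, 373 to 525 in Ctrl_Swim, 766 to 872 in Model and 675 to 809 in Model_Swim. Neutrophil markers (8 genes, 6 higher in Model) summed to 12.4 to 23.4 CPM in Ctrl and 17.2 to 26.2 in Ctrl_Swim, to 318, 416 and 22.1 CPM in Model 1 to 3, and to 51.2, 623 and 413 CPM in Model_Swim 1 to 3. Fibroblast markers (6 of 6 higher) summed to 1365 to 1505 CPM in Ctrl, 1242 to 1486 in Ctrl_Swim, 2385 to 2707 in Model and 1833 to 2440 in Model_Swim. Colonocyte markers (4 of 8 lower) summed to 9548 to 14064 CPM in Ctrl_Swim and 10177 to 10662 in Model_Swim. None of these markers was at 0 in all libraries. Ltf made up most of the highest neutrophil sums, and the other 7 markers summed to 11.1 to 22.6 CPM in the 6 untreated mice, 126, 87.3 and 21.1 CPM in Model 1 to 3, and 33.9, 75.8 and 166 CPM in Model_Swim 1 to 3. Csf3r and Cxcr2 of this list were named after their values were seen. In Model 3 they stood at 7.51 and 1.66 CPM, above every untreated mouse (2.45 to 3.58 and 0.0548 to 0.817 CPM). Every other marker of this list was lower in Model 3 than in the untreated mouse with its highest value. With the colonocyte covariate the Model vs Ctrl difference was −1.28 for Tfrc (adjusted p = 0.0159), 1.31 for Steap4 (adjusted p = 0.045), 0.82 for Cp (adjusted p = 0.0576), 0.16 for Hmox1 (adjusted p = 0.757) and −0.13 for Heph (adjusted p = 0.479). That covariate averages markers, Car1 among them, that did not move together in Model 2. The part of macrophages, neutrophils and fibroblasts in the differences of Cp, Hmox1, Slc40a1 and Steap4 was not tested. In tissue RNA, fewer cells of a type and less RNA per cell cannot be told apart.

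Among swimming mice the same pair of uptake genes passed. Between Model_Swim and Ctrl_Swim, 2 of the 10 genes were called, Steap4 higher and Tfrc lower, against 5.18% of all genes, 3.49% higher and 1.69% lower. Tfrc stood at 406, 349.5 and 316 CPM in Ctrl_Swim mice 2, 3 and 4 and at 213, 265 and 222 CPM in Model_Swim mice 1 to 3, without overlap. Its log2 difference was −0.61 (SE 0.14, adjusted p = 0.0308). Steap4 stood at 10.3, 8.24 and 16.4 CPM in Ctrl_Swim and at 28.4, 38.5 and 51.0 CPM in Model_Swim, also without overlap. Its log2 difference was 1.75 (SE 0.33, adjusted p = 0.0184). Both calls rested on single mice, since Tfrc had an adjusted p between 0.052 and 0.115 without Ctrl_Swim 2, Ctrl_Swim 3 or any of the 3 Model_Swim mice, and Steap4 between 0.0589 and 0.0725 without Ctrl_Swim 2, Ctrl_Swim 3, Model_Swim 2 or Model_Swim 3.

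The other 8 genes did not pass between Model_Swim and Ctrl_Swim. Hmox1 stood at 6.79, 7.50 and 11.5 CPM in Ctrl_Swim and at 14.0, 16.1 and 16.9 CPM in Model_Swim, without overlap, a log2 difference of 0.86 (SE 0.23, adjusted p = 0.0574). DESeq2 called it, with an adjusted p of 0.00921, and so did edgeR without Ctrl_Swim 4 (1.13), Model 1 (0.85) or Model 3 (0.86). Slc40a1 stood at 126, 136 and 121 CPM in Ctrl_Swim and at 154, 160.1 and 157 CPM in Model_Swim, which did not overlap, with a log2 difference of 0.30 (SE 0.18, adjusted p = 0.366). Slc11a2 went from 50.3, 47.7 and 50.1 CPM to 50.5, 57.2 and 51.3 CPM, a log2 difference of 0.10 (adjusted p = 0.430). Cp stood at 23.1, 23.8 and 35.0 CPM in Ctrl_Swim and 29.8, 40.4 and 44.7 CPM in Model_Swim, which overlapped, a log2 difference of 0.49 (SE 0.17, adjusted p = 0.111). Ctrl_Swim 4, the mouse with the high Cp, was also the untreated mouse with the highest Steap4, Hmox1, squamous and macrophage values, and without it Cp was called at 0.71 (adjusted p = 0.0313). Groups without overlap were found for 5 of the 10 genes, against 32.4% of all genes.

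Averaged over swimming, AOM/DSS gave calls in 6 of the 10 genes, 5 higher and 1 lower, against 33.4% of all genes, 17% higher and 16.5% lower. Tfrc had a log2 difference of −0.89 (SE 0.10, adjusted p = 0.000172) and Steap4 of 1.98 (SE 0.24, adjusted p = 0.000258). Cp followed at 0.76 (adjusted p = 0.001), Hmox1 at 0.79 (adjusted p = 0.00473), Slc11a2 at 0.16 (adjusted p = 0.0291) and Slc40a1 at 0.38 (adjusted p = 0.0422). The call of Slc40a1 was lost in 8 of the 12 leave-one-out fits, and that of Slc11a2 in 7 of them. Heph, called between Model and Ctrl, was at −0.10 (adjusted p = 0.290) in this average. All 6 AOM/DSS mice lay on one side of all 6 untreated mice for 2 of the 10 genes, Tfrc and Steap4, and for 12.4% of all genes.

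For AOM/DSS mice with and without swimming, 0 of the 10 genes passed in edgeR, 4 had an unadjusted p under 0.05, DESeq2 called 2 and limma 0. Of all genes 0.071% passed in edgeR, 13.6% had an unadjusted p under 0.05, DESeq2 called 2.33% and limma 0.188%. Both ferritin chains were higher in every Model_Swim mouse than in every Model mouse, and Fth1 had the largest difference of the 10 genes. Fth1 stood at 2499, 2312 and 2049.6 CPM in Model_Swim, beside 1332, 1398 and 1757 CPM in Model, a 1.53-fold difference (log2 0.61, SE 0.13, adjusted p = 0.0976). Ftl1 stood at 1442, 1349 and 1252 CPM, beside 984, 936 and 1236 CPM, a log2 difference of 0.36 (SE 0.10, adjusted p = 0.195). DESeq2 called Fth1 (adjusted p = 5.48e-05) and Ftl1 (adjusted p = 0.0147), and edgeR called both without Model 3, at 0.75 (adjusted p = 0.00351) and 0.50 (adjusted p = 0.00395). With the colonocyte covariate the differences were 0.26 for Fth1 (adjusted p = 0.561) and 0.15 for Ftl1 (adjusted p = 0.746).

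The ferroxidases and the receptor also separated between Model_Swim and Model without passing the test. Heph stood at 190.0, 172 and 181 CPM in Model_Swim, above all Model mice, with a log2 difference of 0.29 (SE 0.10, adjusted p = 0.261). Tfrc was higher in every Model_Swim than in every Model mouse, with 0.41 (SE 0.14, adjusted p = 0.253), and remained below all untreated mice. Cp was lower in every Model_Swim than in every Model mouse, with −0.27 (SE 0.16, adjusted p = 0.506). Groups without overlap were found for 5 of the 10 genes, Tfrc, Fth1, Ftl1, Heph and Cp, against 16.9% of all genes. Steap4, Cybrd1, Slc11a2, Slc40a1 and Hmox1 overlapped, with log2 differences of −0.28, 0.12, −0.14, 0.02 and 0.31. In none of the 10 genes did the 3 Model_Swim mice lie beyond the other 9 mice. The comparisons with Ctrl and with Model_Swim share the Model mice, so a low or high Model value enters both.

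In untreated mice swimming gave 0 calls among the 10 genes in edgeR, DESeq2 and limma, with 1 unadjusted p under 0.05. Of all genes 0.969% were called by edgeR, 4.92% by DESeq2 and 0.368% by limma, and 17.6% had an unadjusted p under 0.05. The member under 0.05 was Heph, at 187, 153 and 139 CPM in Ctrl_Swim beside 185, 196 and 199 CPM in Ctrl, a log2 difference of −0.27 (SE 0.10, adjusted p = 0.203). Fth1 stood at 2242, 1833 and 1764 CPM in Ctrl_Swim, overlapping Ctrl, with 0.10 (adjusted p = 0.706). Ftl1 stood at 1342, 1245 and 1268 CPM, above all Ctrl mice (1199.8 to 1212 CPM), with 0.09 (adjusted p = 0.657). Cybrd1 and Cp did not overlap either, and the share of all genes without overlap was not taken for this comparison. Cybrd1 had the largest difference, with 5.20, 7.71 and 5.52 CPM against 4.19 to 4.90 CPM in Ctrl, a log2 difference of 0.41 (SE 0.27, adjusted p = 0.445). The remaining differences lay between −0.13 for Tfrc and 0.27 for Cp.

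The difference between the effects of swimming with and without AOM/DSS was tested as an interaction. edgeR called 0 of the 10 genes and 0% of all genes, with 4 of the 10 at an unadjusted p under 0.05, while DESeq2 called 2 of the 10 and limma 0. Of all genes 19% had an unadjusted p under 0.05, DESeq2 called 5.52% and limma 0%. Heph had the smallest p, with an interaction of 0.57 (SE 0.14, adjusted p = 0.115), since its level was lower in swimming mice without AOM/DSS and higher in swimming mice with it. Tfrc (0.55, adjusted p = 0.169), Fth1 (0.51, adjusted p = 0.167) and Cp (−0.54, adjusted p = 0.239) were next. DESeq2 called Heph (adjusted p = 0.00683) and Fth1 (adjusted p = 0.0475). Without Model 3 edgeR called the same 2 genes, Heph at 0.62 (adjusted p = 0.0369) and Fth1 at 0.63 (adjusted p = 0.0395), and without Ctrl_Swim 2 it called Heph at 0.66 (adjusted p = 0.0359).

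Calls of 7 of the 10 genes changed without Model 1 and Model 3 together, or with a covariate for acinar or squamous genes. Between Model and Ctrl, Slc11a2 and Hmox1 lost their call in all 3 of these fits, Slc11a2 at 0.13 (adjusted p = 0.297) and Hmox1 at 0.50 (adjusted p = 0.218) with the squamous covariate. Heph lost its call with either covariate and was at −0.28 (adjusted p = 0.119) with the squamous one. Slc40a1 gained a call with the squamous covariate, at 0.74 (adjusted p = 0.0113), and Ftl1 gained one without both Model mice, at −0.38 (adjusted p = 0.0114). Averaged over swimming, Slc11a2 (0.08, adjusted p = 0.370) and Hmox1 (0.62, adjusted p = 0.0587) lost their call with the squamous covariate, Slc40a1 lost it with the acinar covariate (0.22, adjusted p = 0.258) or without both mice (0.18, adjusted p = 0.0981), and Ftl1 was called without them (−0.16, adjusted p = 0.0407). Between Model_Swim and Ctrl_Swim, Tfrc was not called with the squamous covariate (−0.63, adjusted p = 0.0579) and Hmox1 was called without both mice (0.85, adjusted p = 0.0259). Between Model_Swim and Model, Fth1 was called with the squamous covariate (0.66, adjusted p = 0.0384), and without both mice Fth1 (0.73, adjusted p = 0.0263), Ftl1 (0.54, adjusted p = 0.0141) and Tfrc (0.66, adjusted p = 0.0491) were called. In the interaction Tfrc (0.78, adjusted p = 0.041), Heph (0.63, adjusted p = 0.0472) and Ftl1 (0.44, adjusted p = 0.0467) were called without both mice. Those fits rest on Model 2 alone for the Model group, which is assumed to vary like the other groups. Calls over all genes moved as well. Between Model and Ctrl they went from 5066 to 3030 with the acinar covariate and 2680 with the squamous one. Averaged over swimming they went from 5175 to 4299 and 2508, and between Model_Swim and Ctrl_Swim from 802 to 779 and 504. Between Model_Swim and Model they went from 11 to 1 and 126.

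Ratios of counts within a library, which do not depend on library scaling, are given as a description. Tfrc per 100 Fth1 counts, the receptor relative to the storage shell, was 21.7 ± 2.31 (SD, n = 3) in Ctrl, 18.4 ± 0.614 in Ctrl_Swim, 11.96 ± 3.27 in Model and 10.3 ± 1.56 in Model_Swim. All 6 AOM/DSS mice (8.52 to 15.7) lay below all 6 untreated mice (17.9 to 23.6), and Model and Model_Swim overlapped. Tfrc per 100 Slc40a1 counts, import relative to export, was 352 ± 46.8 in Ctrl, 281 ± 36.9 in Ctrl_Swim, 121 ± 40.8 in Model and 149 ± 14.9 in Model_Swim. The AOM/DSS mice (78.1 to 166) again lay below the untreated mice (258 to 406). Fth1 per 100 Ftl1 counts was 151 ± 5.52 in Ctrl, 151 ± 14.4 in Ctrl_Swim, 142 ± 7.03 in Model and 169 ± 5.10 in Model_Swim. Model_Swim mice (164 to 173) lay above Model mice (135 to 149) and overlapped Ctrl_Swim mice (139 to 167). Cp per 100 Heph counts, the ratio of the ferroxidases, was 11.7 ± 0.306 in Ctrl and 31.3 ± 1.84 in Model, with 17.7 ± 6.67 in Ctrl_Swim and 21.3 ± 4.87 in Model_Swim between them.

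**Figure D3:**
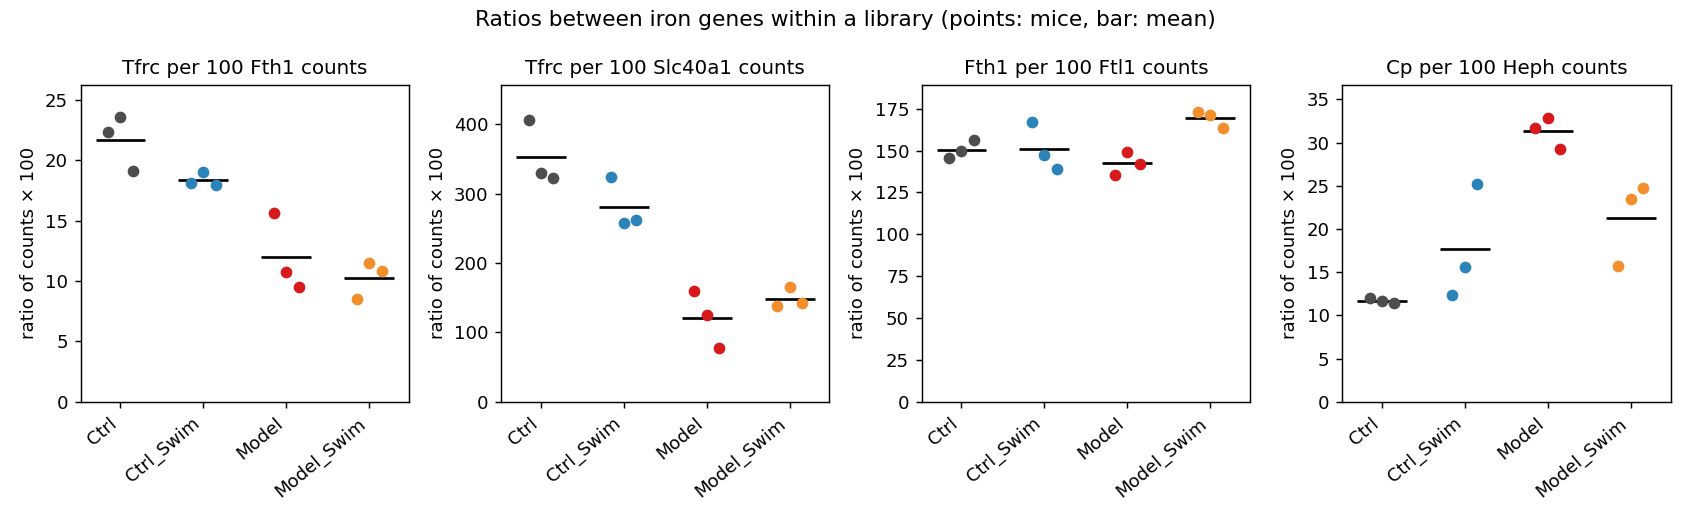
Ratios of raw counts between pairs of iron genes within each library, times 100 (vertical axes, linear, from 0), with the group mean as a bar. Tfrc relative to Fth1 and to Slc40a1 is lower in all 6 AOM/DSS mice, and Cp relative to Heph is highest in the 3 Model mice (29.3 to 32.9).

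Other genes of iron handling were described in 5 lists, of uptake and transfer, haem handling, regulators, targets of the oxidative stress factor NRF2, and ferroptosis, a form of cell death by iron-dependent lipid peroxidation. Of 15 further genes of uptake, reduction and transfer that were tested, 3 were higher and 2 lower in Model than in Ctrl, with a median log2 difference of 0.23. Ltf and Lcn2, which encode the iron-binding lactoferrin and the siderophore-binding lipocalin 2 of neutrophils and epithelium, led with 7.35 (SE 1.90, adjusted p = 0.0141) and 2.88 (SE 0.69, adjusted p = 0.00982). Ltf stood at 0.772 to 1.31 CPM in Ctrl, 192 and 329 CPM in Model 1 and Model 2, and 0.975 CPM in Model 3. In Model_Swim it stood at 17.3, 547 and 246 CPM. The call of Ltf was lost without any 1 of the 3 Ctrl mice, with adjusted p between 0.0548 and 0.0557. Lcn2 stood at 44.5, 20.6 and 4.82 CPM in Model and at 2.97 to 3.54 CPM in Ctrl. Trf, which encodes transferrin, rose from 51.8, 60.0 and 79.8 CPM in Ctrl to 103, 90.6 and 131 CPM in Model (0.76, SE 0.18, adjusted p = 0.00876). Steap3, the endosomal ferrireductase of the transferrin cycle, was lower in Model (−0.38, adjusted p = 0.0131), as was Pcbp1, an iron chaperone that loads ferritin (−0.29, adjusted p = 0.0182). Slc39a14, a transporter of iron not bound to transferrin, had a difference of 0.03 (adjusted p = 0.750).

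Of 10 haem genes tested, 1 was higher and 3 lower, with a median of −0.26. Hp, which encodes the haemoglobin-binding haptoglobin, stood at 0.772, 2.45 and 9.12 CPM in Ctrl and at 21.7, 13.6 and 14.97 CPM in Model, a log2 difference of 2.02 (SE 0.67, adjusted p = 0.04). It lay between 1.56 and 3.39 over the leave-one-out fits, highest without Ctrl 3, the mouse with the highest hepatocyte marker sum, and the call was lost in 9 of 23 alternatives, among them the fits without Ctrl 1, Ctrl 2, Ctrl_Swim 2, Model 1, Model 2 or Model_Swim 2. Cd163, the macrophage receptor of the haptoglobin-haemoglobin complex, fell from 9.10, 10.4 and 7.47 CPM in Ctrl to 2.09, 2.18 and 5.62 CPM in Model (−1.45, SE 0.35, adjusted p = 0.011), while 8 of the other 10 macrophage markers rose. Fech, the ferrochelatase that completes haem, was at −0.31 (adjusted p = 0.00687) and Blvra, a biliverdin reductase, at −0.35 (adjusted p = 0.0291). Of 12 regulators, 1 was higher and 1 lower, with a median of 0.06. Bmp6, the signal that links iron stores to hepcidin, was higher at 0.72 (SE 0.15, adjusted p = 0.00587). Aco1, which encodes iron regulatory protein 1, was lower at −0.42 (SE 0.08, adjusted p = 0.00467), from 147, 157 and 156 CPM in Ctrl to 118, 102 and 124 CPM in Model. Ireb2, which encodes iron regulatory protein 2, had −0.20 (adjusted p = 0.0754), Fbxl5, which targets it for degradation, 0.09 (adjusted p = 0.327), and Ncoa4, the receptor for ferritin turnover, −0.15 (adjusted p = 0.157). Hamp, which encodes hepcidin, reached at most 12 counts in any library and was not tested, and Flvcr1 and Flvcr2 were not analysed here.

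Of 10 NRF2 targets, 1 was higher and 5 lower, with a median of −0.28. DESeq2 called 6 of them lower and limma 1, against 15.9% and 10.9% of all genes. The edgeR count of 5 lower lay between 1 and 6 over the leave-one-out fits, with 1 without Ctrl 1, Ctrl 3 or Model 2 and 6 without Model 3. Slc7a11, the cystine importer, rose from 12.7, 7.90 and 10.7 CPM to 25.4, 25.8 and 16.2 CPM (1.10, SE 0.31, adjusted p = 0.0207). The enzymes of glutathione and NADPH supply Gsr (−0.36, adjusted p = 0.00419) and Pgd (−0.35, adjusted p = 0.0231) and the sulfiredoxin Srxn1 (−0.33, adjusted p = 0.0386) were lower. Of 14 ferroptosis genes, 2 were higher and 4 lower, with a median of −0.05. Acsl4, which feeds polyunsaturated fatty acids into membranes, was higher at 0.52 (adjusted p = 0.0227), and Slc3a2, the partner chain of Slc7a11, at 0.34 (adjusted p = 0.00796). The mitochondrial channels Vdac3 (−0.63, adjusted p = 0.00188) and Vdac2 (−0.42, adjusted p = 0.00174) and the glutathione synthetase Gss (−0.45, adjusted p = 0.00399) were lower. The lists span many cell types, and these counts stand beside the 32.7% of all genes called in the same comparison.

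Between Model_Swim and Ctrl_Swim, 7 of the 61 genes tested in these lists were called, all higher, against 5.18% of all genes, 3.49% higher. They were Lcn2 (2.71, adjusted p = 0.0412), Trf (0.84, adjusted p = 0.0255), Hp (3.35, adjusted p = 0.0291), Slc7a11 (1.90, adjusted p = 0.0111), Slc3a2 (0.36, adjusted p = 0.0262), Bach1 (0.29, adjusted p = 0.0365), a repressor of haem oxygenase and ferritin genes, and Txnrd1 (0.34, adjusted p = 0.0294), a thioredoxin reductase. These calls did not hold in every leave-one-out fit, since in each list the number called fell to 0 in at least 1 of them. Over 23 alternatives the call was lost in 14 for Bach1, 12 for Lcn2, 11 each for Txnrd1 and Slc3a2, 6 each for Trf and Hp, and 2 for Slc7a11. Without Model_Swim 3 none of the 7 genes was called, and the calls over all genes went from 802 to 170. Ltf was at 5.89 (SE 1.66, adjusted p = 0.0658) in this comparison. Between Model_Swim and Model, 0 of the 61 genes tested in the 5 lists passed in edgeR, 20 had an unadjusted p under 0.05, DESeq2 called 7 and limma 1, all higher in Model_Swim. Of all genes 13.6% had an unadjusted p under 0.05, and DESeq2 called 1.37% and limma 0.166% higher.

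Of the 7 genes called by DESeq2, 6 were on the NRF2 list. The median log2 difference of the NRF2 list between Model_Swim and Model was 0.33, beside −0.01 over all genes. Nqo1 and Gclc, chosen after their values were seen, had the smallest p of the list. Nqo1, a quinone reductase, stood at 48.0, 47.3 and 84.3 CPM in Model and at 111, 109.9 and 113 CPM in Model_Swim (0.90, SE 0.19, adjusted p = 0.113 in edgeR and 0.000198 in DESeq2). Gclc, the catalytic chain of the enzyme that begins glutathione synthesis, stood at 95.1, 113 and 136 CPM in Model and at 198, 192 and 187 CPM in Model_Swim (0.75, SE 0.12, adjusted p = 0.0603 in edgeR and 2.3e-07 in DESeq2). Both genes were also higher in Ctrl_Swim, at 122.9, 93.4 and 108 CPM for Nqo1 and 175, 139 and 158 CPM for Gclc, than in Ctrl, at 77.7, 85.6 and 82.2 CPM and 136, 127 and 122 CPM, without overlap. The list as a whole did not share this, with a median log2 difference of −0.12 between Ctrl_Swim and Ctrl. In that comparison edgeR called 0 of its 10 genes, against 0.969% of all genes. The list was chosen with earlier results of these data known and is described by its counts and median only.

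**Figure D4:**
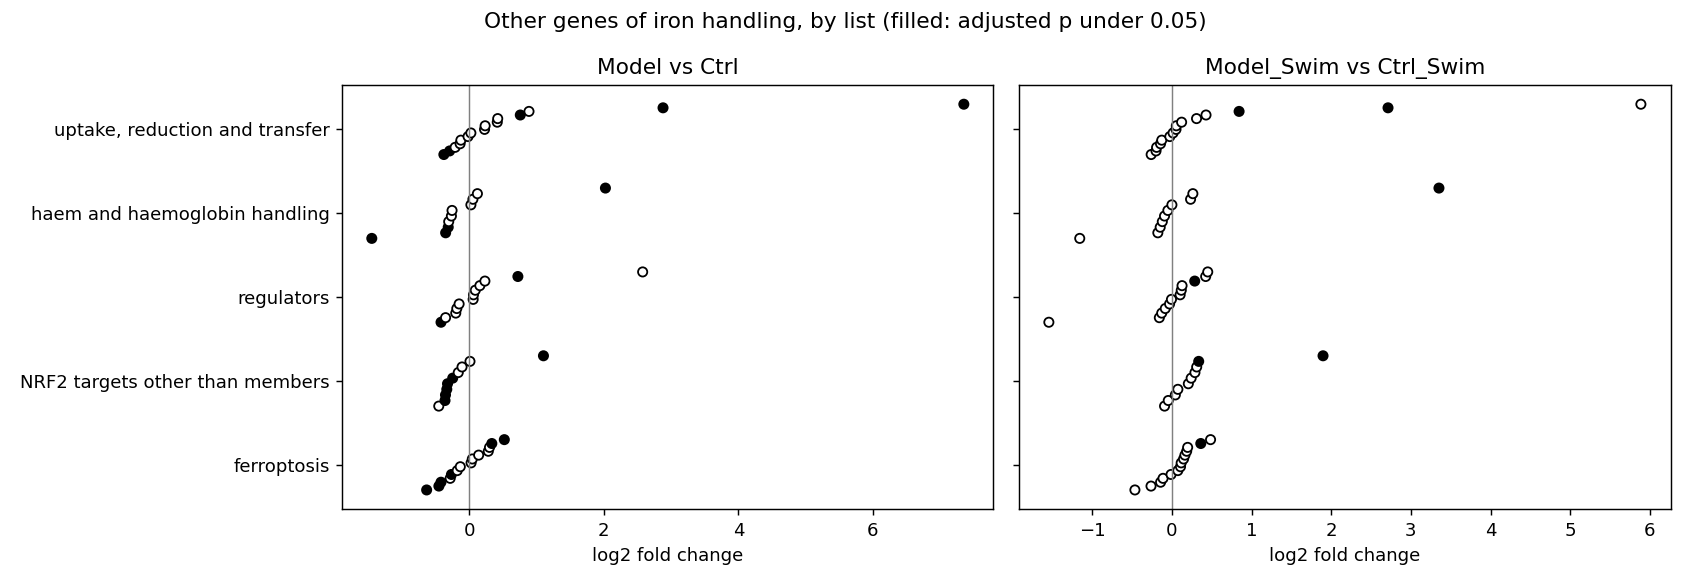
Log2 fold change (horizontal axes) of the genes tested in 5 lists of iron handling, between Model and Ctrl and between Model_Swim and Ctrl_Swim; each point is a gene, sorted within its list, and filled points passed an adjusted p under 0.05. Ltf at 7.35, Lcn2 at 2.88, Hfe2 at 2.58 (open, not called) and Hp at 2.02 stand far to the right between Model and Ctrl, and most other points lie within 1 of zero.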

How the data were processed

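RNA of colorectal tissue from 12 mice was sequenced, 1 library per mouse, and groups were taken from the treatment label. Nothing in the labels names a batch, and p-values measure the spread between these mice. Libraries were made with a stranded mRNA kit and read on an Illumina HiSeq X instrument. The methods name TRIzol for extraction and the labels a mirVana kit. After trimming by Trimmomatic and HISAT2 alignment to GRCm38.p6, the authors deposited raw counts per gene from HTSeq-count, without normalization. They also deposited FPKM values from Cufflinks, scaled to transcript length and library size. Tool versions, the annotation release and the strand setting of the counting are not given in the sources used here. The 2 tables list 18514 genes by symbol, of which 115 had no count in any library.

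The counts were fitted in edgeR 4.0.16 (R 4.3.3) with TMM scaling, filterByExpr with a minimum count of 10 (15484 genes) and the quasi-likelihood test of a 4-group model on all 12 libraries, with Benjamini-Hochberg adjustment over all genes tested in each comparison. A gene was called at an adjusted p under 0.05. The study used DESeq2 with a further fold cutoff over 2 or under 0.5, and both are alternatives here. Fold changes are log2, and the SE follows from the fold change and the F statistic. The comparisons were Model vs Ctrl, Model_Swim vs Ctrl_Swim, AOM/DSS averaged over swimming, Model_Swim vs Model, Ctrl_Swim vs Ctrl and the interaction. Alternatives were DESeq2 1.42.0 and its size factors in edgeR, limma 3.58.1 on log2(FPKM + 1) with a mean FPKM of at least 0.5, with a pseudocount of 0.1 or without the filter, no filter on counts, a separate fit for each pair of groups, a replicate block, a covariate for acinar genes, the fit without Model 1 and Model 3, and 12 leave-one-out fits. The squamous and colonocyte covariates were chosen after seeing the data.

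The 10 members, the pathway and marker lists and the comparisons were chosen with earlier results of these data known. The text names all members and, of each pathway list, at most the top 3 increases and top 3 decreases by fold among the genes called between Model and Ctrl, 9 regulators and carriers of iron whatever their values (Hamp, Aco1, Ireb2, Fbxl5, Ncoa4, Trf, Ltf, Lcn2, Slc39a14), and for each member the 3 genes with the highest Pearson r. Bach1, Txnrd1, Nqo1, Gclc, Hpx, Hfe2 and Cxcr2 fall outside these rules and were named after their values were seen. A count of 0 allows up to 3 counts, which is 0.154 to 0.174 CPM per library, and this covers counting error only. Gene positions come from the RefSeq annotation of GRCm38.p6 and UTRs from GENCODE M21 on the same build. The code was tested on simulated counts with 200 genes changed 4-fold in Model. Between Model and Ctrl edgeR recovered 178 with 9 other genes called among 15491, and DESeq2 186 with 37 among 18514. Limma recovered 172 with 7 among 13834. Between Model_Swim and Ctrl_Swim, where no gene was changed, DESeq2 called 12 genes, edgeR 0 and limma 0. Other genes called were 30, 6 and 6 by these tools between Model_Swim and Model, and 40, 4 and 3 in the interaction.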

Additional observations from a re-analysis of the deposited data

Results flagged for a closer look

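Cp was the 1 gene of the 10 in which every swimming mouse lay above its non-swimming group in untreated mice and below it in AOM/DSS mice. The fitted differences of Heph, Tfrc and Steap4 also had opposite signs, with overlapping groups in untreated mice. All 3 Ctrl_Swim mice (23.1, 23.8 and 35.0 CPM) lay above all 3 Ctrl mice (22.2 to 22.8 CPM), and all 3 Model_Swim mice (29.8, 40.4 and 44.7 CPM) lay below all 3 Model mice (44.9 to 46.8 CPM). The difference itself, tested as the interaction in edgeR, was −0.54 on the log2 scale (SE 0.23, adjusted p = 0.239) and did not pass. The margins were narrow for Ctrl_Swim 2 and Ctrl_Swim 3 against Ctrl and for Model_Swim 3 against Model. How many of all genes show the same pattern was not counted. Groups had 3 mice, so no single mouse was assessed as an outlier.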

How the results depend on the processing

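Of 1480 results for the 10 members over the alternatives and comparisons, 1376 stayed on the same side of the threshold, 67 lost and 37 gained a call, and no called value changed sign. Most of these results had no call in the main fit and so none to lose. Tfrc and Steap4 were called between Model and Ctrl in every alternative fit. Of the 25 alternatives in that comparison, the call was lost in 11 each for Slc11a2 and Hmox1, 4 for Heph and 1 for Cp. Averaged over swimming it was lost in 12 of 24 for Slc40a1 and 11 for Slc11a2. The number of members called between Model and Ctrl (6) was 3 under the study's cutoffs, 3 with the acinar covariate and 2 with the colonocyte covariate, which left Tfrc and Steap4. Between Model_Swim and Ctrl_Swim (2) it was 4 with only the groups compared, 1 under the study's cutoffs and 1 with the squamous covariate. Averaged over swimming (6) it was 1 under the study's cutoffs. Between Model_Swim and Model (0) it was 2 by DESeq2, 3 without Model 1 and Model 3 together, and 1 with the squamous covariate, and in the interaction (0) it was 2 by DESeq2 and 3 without Model 1 and Model 3 together. The cause of these changes was not tested. Leaving out 1 mouse at a time gave 4 to 8 members between Model and Ctrl, 0 to 4 between Model_Swim and Ctrl_Swim, 4 to 6 averaged over swimming, 0 to 2 for swimming in AOM/DSS mice, 0 for swimming in untreated mice, and 0 to 2 in the interaction. Averaged over swimming, the lower end came without Ctrl 3, Ctrl_Swim 2, Ctrl_Swim 3 or Model_Swim 2, and the upper end without Model 3. For the other comparisons with a range, the mice behind the ends are named beside each gene. Over all genes the same leave-one-out fits gave 3160 to 5620 calls between Model and Ctrl and 170 to 1459 between Model_Swim and Ctrl_Swim. They gave 3986 to 5775 averaged over swimming, 6 to 882 for swimming in AOM/DSS mice, 0 to 302 in untreated mice and 0 to 716 in the interaction. The differences of the ratios kept their sign in those fits, except Tfrc to Fth1 between Model_Swim and Model (−0.35 to 0.02 on the log2 scale) and Fth1 to Ftl1 between Ctrl_Swim and Ctrl (−0.07 to 0.06).

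The replicate numbers mark nothing stated. Deviations of mice with the same number correlated between −0.26 and 0.56 over 15 pairs, against −0.56 to 0.45 over 39 other pairs. These ranges overlap and cannot settle whether mice with the same number are paired, and the main fit did not pair them. With the replicate number as a block, 5 members were called between Model and Ctrl, 0 between Model_Swim and Ctrl_Swim and 4 averaged over swimming, and 0 in the other comparisons. Over all genes the calls were 4321 against 5066 between Model and Ctrl, 40 against 802 between Model_Swim and Ctrl_Swim, and 26 against 11 between Model_Swim and Model. Number 4 occurs only in Ctrl_Swim, so the block fits Ctrl_Swim 4 on its own and takes it out of these comparisons. Limma on FPKM, which is not TMM-scaled, called 3003 genes higher and 1516 lower between Model and Ctrl, against 2562 and 2504 in edgeR. Hpx, the haemopexin gene, turned from −0.30 to 3.27 (adjusted p = 0.0285) without Ctrl 3, the mouse with the highest hepatocyte marker sum (206 CPM), and lay between −0.85 and 3.27 over the leave-one-out fits.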

Other observations

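The genes whose log2 CPM over the 12 libraries was most like each member, among 13917 tested genes with a mean of at least 1 CPM, are given with Pearson's r as a description. The 12 points hold the differences between the groups, and no p is given. Tfrc was closest to Nifk (r = 0.99), a nucleolar protein gene, and to Ndufb11 and Ndufa5 (both r = 0.98), subunits of respiratory complex I. Steap4 was closest to Csf3r (r = 0.98), the receptor of granulocyte colony-stimulating factor, then Igfbp4 and Wfdc17 (both r = 0.97). Cp was closest to Tyrobp (r = 0.98) and Cybb (r = 0.97), both expressed in myeloid cells, and to Ltbp2 (r = 0.97). Hmox1 was closest to Clec5a (r = 0.94), a myeloid receptor, Lrg1 (r = 0.93) and Syt16 (r = 0.92). Slc40a1 was closest to Itgad (r = 0.96), an integrin chain of macrophages, Snx30 (r = 0.93) and Cmah (r = 0.91).

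Heph was closest to Fuca1 (r = 0.98), a lysosomal fucosidase gene, Mfn2 and Crb3 (both r = 0.95). Ftl1 was closest to Nqo1 (r = 0.95), then Acaa1b and Fgf12 (both r = 0.94), and Fth1 to Vat1 (r = 0.93), Por (r = 0.92) and Lig4 (r = 0.91). Slc11a2 was closest to Ccl2 (r = 0.92), Col7a1 and Trim24 (both r = 0.91), and Cybrd1 to Igsf10, Lrrc17 (both r = 0.87) and Letmd1 (r = 0.86). Among the members themselves, Fth1 and Ftl1 had r = 0.94, Steap4 and Cp 0.92, Steap4 and Hmox1 0.88, and Tfrc and Cp −0.89.

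Goblet cell markers (6 genes, led by Clca1 and Muc2) summed to 37284 to 47871 CPM in Ctrl, 13639 to 17807 in Ctrl_Swim, 13879 to 34033 in Model and 16705 to 30582 in Model_Swim. Erythroid genes (6 genes, led by Hbb-bs) summed to 20.1 to 213 CPM, highest in Ctrl_Swim 3, whose Hmox1 level of 7.50 CPM lay within the range of the untreated mice.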
